A study of Homo sapiens with 15 samples.

Results

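Transcripts of 10 genes that write, copy, read or remove DNA methylation was followed across clones of HEK293T, a human embryonic kidney cell line. The genes were chosen by their known roles, with earlier results of these data known: DNMT1, UHRF1 and UHRF2 for maintenance, DNMT3A and DNMT3B for new methylation, TET1, TET2, TET3 and TDG for removal, and MBD2 as a reader. They are 10 of the 58735 genes listed in each library, and all 10 passed the filter of the test. Their levels were set beside the genes that were on in one clone and off in others.

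The study made HEK293T clones in which lentiCRISPRv2, a lentivirus that carries Cas9 and a guide RNA, had disrupted 1 gene, to study how supporting cells protect leukemia cells from a drug. RNA was sequenced from 15 libraries in 5 groups of 3 wells, which were Non-target (a guide without a target) and the clones C9orf89-CKO, MAGI2-CKO, MLPH-CKO, then RHBDD2-CKO. CKO stands for CRISPR knockout. Where 4 values are given for the 4 clones, they follow this order. All 5 groups, Non-target included, carry the vector and its puromycin selection. Each group is 1 clone from limiting dilution, so that the effect of a lost gene and the difference between any 2 clones cannot be told apart, and the wells measure culture and library spread only. The 4 comparisons with Non-target share the same 3 Non-target wells.

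In mammals, DNA methylation sits mainly on the cytosine of CG dinucleotides, and after each round of replication the new strand lacks it. UHRF1 binds sites with the mark on 1 strand only and brings in DNMT1, which copies the mark, while DNMT3A and DNMT3B place it where there was none. TET enzymes oxidize methylated cytosine, TDG excises the oxidized forms so that repair can restore a plain cytosine, and MBD2 binds methylated CG and recruits repressors. Dense promoter methylation is known to keep germline genes and some tumor suppressor genes silent in cell lines. DNA methylation itself was not measured here. In bulk RNA, fewer cells that express a gene and less RNA in each cell cannot be told apart.

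Where such marks could lie is shown by sequence before a RefSeq start of 4 genes: UHRF1 (the member past the threshold in the most comparisons), TET2 (the member with the widest range of group means), and CYBA and IGFBPL1 (each on in 4 groups and off in 1). CG is in capitals, the sequences run 5′ to 3′ on the strand of the gene, and they come from RefSeq on GRCh38.p14 without bases that GENCODE v29 annotates as exon. The stretch before UHRF1 (chr19:4909894-4910143, plus strand, between exons of the annotated gene, before one of its inner starts) holds 32 CG in 250 bases, that before TET2 (chr4:105145625-105145874, plus strand) holds 10 in 250 (the window of 300 bases at another TET2 start holds 35), that before CYBA (chr16:88651153-88651303, minus strand) holds 7 in 151, and that before IGFBPL1 (chr9:38424455-38424704, minus strand) holds 35 in 250.
UHRF1: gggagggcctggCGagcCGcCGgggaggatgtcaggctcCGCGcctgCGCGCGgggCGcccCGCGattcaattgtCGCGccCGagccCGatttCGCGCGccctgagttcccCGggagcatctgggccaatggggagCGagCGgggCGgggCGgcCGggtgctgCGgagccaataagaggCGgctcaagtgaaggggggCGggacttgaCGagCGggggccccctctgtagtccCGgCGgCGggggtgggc
TET2: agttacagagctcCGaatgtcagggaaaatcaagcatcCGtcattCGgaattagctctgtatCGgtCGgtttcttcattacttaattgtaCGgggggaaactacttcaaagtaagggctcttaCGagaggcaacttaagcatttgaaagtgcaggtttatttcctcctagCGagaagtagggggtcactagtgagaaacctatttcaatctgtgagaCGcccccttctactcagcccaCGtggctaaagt
CYBA: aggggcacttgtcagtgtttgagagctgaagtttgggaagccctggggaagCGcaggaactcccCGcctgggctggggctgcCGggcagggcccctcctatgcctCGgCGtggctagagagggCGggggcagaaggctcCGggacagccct
IGFBPL1: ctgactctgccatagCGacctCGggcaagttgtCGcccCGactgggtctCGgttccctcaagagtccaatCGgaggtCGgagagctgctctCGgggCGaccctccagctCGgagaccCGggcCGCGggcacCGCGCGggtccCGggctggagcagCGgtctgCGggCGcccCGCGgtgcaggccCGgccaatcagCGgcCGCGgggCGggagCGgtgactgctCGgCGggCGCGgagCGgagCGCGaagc

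The deposited values name no unit and were taken as FPKM, fragments per kilobase of exon scaled to the depth of the library, and a library held 15517856 to 19489918 fragments on genes (median 17666063). Before the results, the libraries and labels were checked. In every group the library numbered 1 stood apart from the libraries numbered 2 and 3. Over genes that had 10 or more fragments in both libraries together, their fragments differed by a mean chi-square of 14.6 to 24.8 when the library numbered 1 was 1 of them, and of 2.40 to 6.54 when it was not. Once the group means were taken out, all 10 pairs of libraries numbered 1 had a correlation over 0.1 (0.128 to 0.312). The labels do not say what the number stands for. Counts of members called against Non-target are therefore also given without the 5 libraries numbered 1.

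The targeted genes gave a partial check of the labels. RHBDD2 was at 27.4, 38.1 and 34.9 FPKM in Non-target and at 11.2, 13.5 and 12.4 FPKM in RHBDD2-CKO, but also at 11.7, 13.8 and 16.01 FPKM in MAGI2-CKO. For CARD19, the current name of C9orf89, the values were 5.70, 7.71 and 6.27 FPKM in Non-target and 4.34, 4.27 and 4.34 FPKM in C9orf89-CKO, but 4.52, 5.17 and 4.69 FPKM in RHBDD2-CKO were also below every Non-target library. MAGI2 was between 0.0523 and 0.123 FPKM in all 15 libraries. In MAGI2-CKO it was at 0.0899, 0.0523 and 0.0618 FPKM, below every Non-target library, but so were all libraries of C9orf89-CKO and RHBDD2-CKO. MLPH is listed at 0 in all 15 libraries, so that its RNA says nothing about that label. A guide that shifts the reading frame need not lower the RNA.

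Of 9 markers of HEK293T, VIM (vimentin, an intermediate filament protein) was the most abundant, with a mean of 45.2 to 82.2 FPKM over the groups, and 7 to 8 of the 9 were at 1 FPKM or more in every library of a group, except in RHBDD2-CKO, where 4 were. The 2 neurofilament genes varied most. NEFL was at 0.984 ± 0.131 FPKM (SD, n = 3) in RHBDD2-CKO and at 18.8 to 34.8 FPKM elsewhere, and NEFM was at 0.0274 ± 0.0378 FPKM in MAGI2-CKO. The study also grew HEK293T beside U937 leukemia cells, so 9 blood cell genes were examined. They summed to 1.42 to 8.63 FPKM in a library. PTPRC (CD45) had at most 1 fragment in any library and LYZ (lysozyme) at most 4. Most of the sum was CORO1A in the 4 clones and LCP1 in Non-target (6.84 ± 0.352 FPKM), 2 genes of the actin skeleton.

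Of the 3 genes of the maintenance step, UHRF1 differed most. UHRF1, the most abundant member in Non-target (chromosome 19 from 4903080 to 4962154 of GRCh38), was at 50.01, 57.0 and 55.6 FPKM in Non-target and at 49.3, 49.7 and 52.0 FPKM in MAGI2-CKO. It was at 45.0, 43.5 and 46.8 FPKM in C9orf89-CKO, at 39.0, 36.1 and 39.0 FPKM in MLPH-CKO and at 35.8, 38.4 and 35.9 FPKM in RHBDD2-CKO. All libraries of the last 3 clones lay below all Non-target libraries, whereas MAGI2-CKO overlapped with Non-target.

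Differences were tested with limma, a linear model with shared variance, on log2(FPKM + 0.1) over 16175 genes, with Benjamini-Hochberg adjustment in each comparison and a threshold of 0.05. On this scale UHRF1 fell by 0.56 in RHBDD2-CKO (adjusted p = 2.07e-05 from limma), by 0.51 in MLPH-CKO (adjusted p = 5.1e-05) and by 0.26 in C9orf89-CKO (adjusted p = 0.00661). The standard error was 0.06 in all 3. The difference of −0.11 in MAGI2-CKO did not pass (adjusted p = 0.207, 95% interval −0.24 to 0.03). UHRF1 was called in 7 of the 10 comparisons among the 5 groups, more than any other member. RHBDD2-CKO and MLPH-CKO, the neighbours at the low end, did not differ beyond their spread (−0.05, 95% interval −0.18 to 0.08).

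DNMT1, the maintenance enzyme (chromosome 19 from 10133345 to 10231286), kept to a narrower range. It was at 38.4, 41.3 and 41.4 FPKM in Non-target, at 41.1, 39.1 and 36.3 FPKM in C9orf89-CKO, at 37.6, 41.5 and 41.4 FPKM in MAGI2-CKO and at 37.3, 41.4 and 42.9 FPKM in MLPH-CKO. In RHBDD2-CKO it was at 27.5, 33.9 and 32.8 FPKM, below every library of the other groups. There it fell by 0.37 on the log2 scale against Non-target (standard error 0.09, adjusted p = 0.00534 from limma), and the call was lost with quantile normalization (adjusted p = 0.0625). In the other 3 clones the difference was −0.06, −0.01 and 0.00, with 95% intervals that stayed within −0.24 and 0.19. The exons of DNMT1 share 83 bases with S1PR2 (0.847% of their length). No other member shares exon bases with another gene.

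Because UHRF1 fell in MLPH-CKO and DNMT1 did not pass there, their proportion moved. The ratio of DNMT1 to UHRF1 FPKM was 0.746 ± 0.0210 (SD, n = 3) in Non-target, 0.798 ± 0.0368 in MAGI2-CKO, 0.855 ± 0.0768 in RHBDD2-CKO, 0.863 ± 0.0756 in C9orf89-CKO and 1.07 ± 0.0999 in MLPH-CKO. In MLPH-CKO the libraries, from 0.956 to 1.15, lay above all other libraries, of which the highest was at 0.914. These ratios were not tested.

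UHRF2, a relative of UHRF1 that also binds modified cytosine (chromosome 9 from 6413151 to 6507054), was far less abundant. It was at 3.84, 3.36 and 4.19 FPKM in Non-target, at 3.22, 2.87 and 2.86 FPKM in C9orf89-CKO, at 3.72, 3.38 and 3.14 FPKM in MAGI2-CKO, at 2.54, 2.91 and 3.06 FPKM in MLPH-CKO and at 3.85, 3.85 and 3.72 FPKM in RHBDD2-CKO. C9orf89-CKO and MLPH-CKO did not overlap with Non-target. UHRF2 fell by 0.41 in MLPH-CKO (adjusted p = 0.00691 from limma, 0.0577 with only the 6 libraries compared) and by 0.33 in C9orf89-CKO (adjusted p = 0.0234). The second call was lost without Non-target replicate 1 (adjusted p = 0.0564), Non-target replicate 3 (0.103), C9orf89-CKO replicate 2 (0.0769) or C9orf89-CKO replicate 3 (0.0756), or with only the 6 libraries compared (0.0789), and over all alternatives its adjusted p ranged from 0.0117 to 0.103. UHRF2 was 0.42 higher in RHBDD2-CKO than in MLPH-CKO (adjusted p = 0.00462 from limma).

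**Figure D1:**
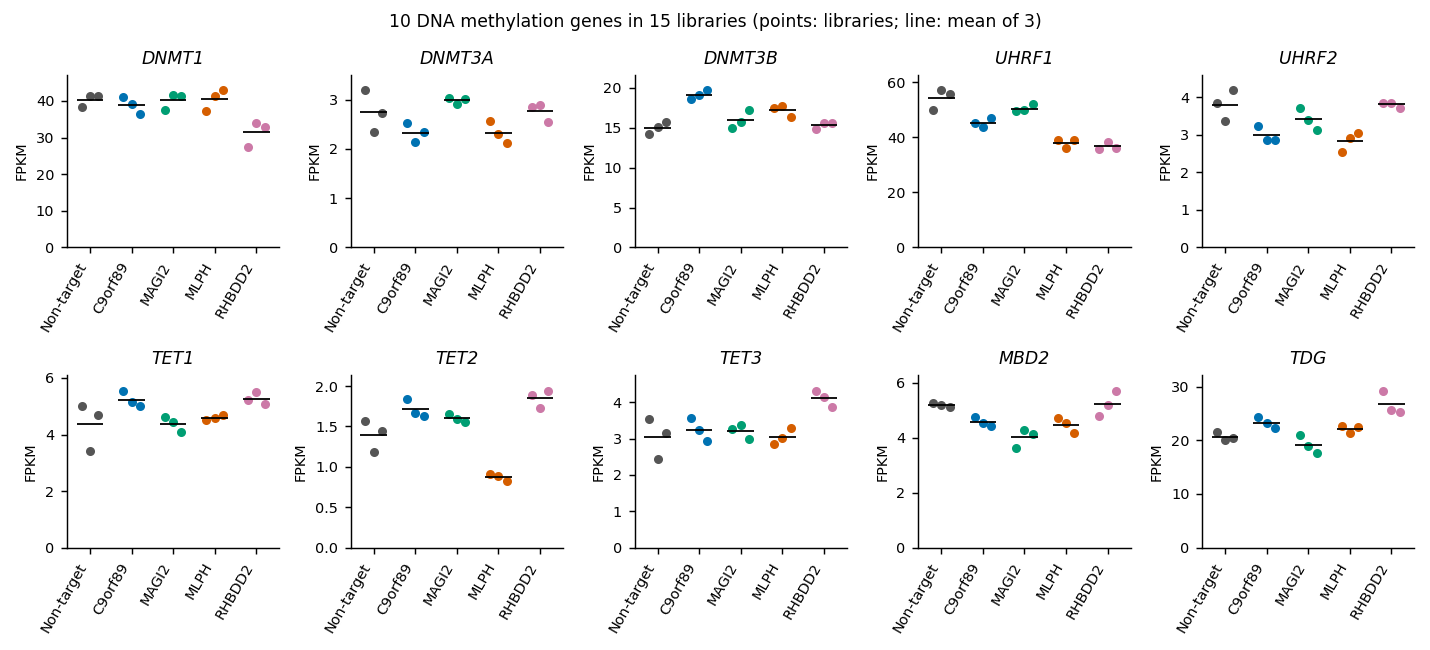
Points give the FPKM (vertical axes, from 0) of each of the 10 genes in the 3 libraries of each group, in the order of their replicate numbers, and lines give the mean. UHRF1 steps down to 36.7 FPKM on average in RHBDD2-CKO, TET2 is lowest in the 3 libraries of MLPH-CKO, and DNMT1, TET3 and TDG set RHBDD2-CKO apart.

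Of the enzymes for new methylation, DNMT3B was the abundant one and DNMT3A was the scarce one. DNMT3B (chromosome 20 from 32762385 to 32809356) was at 14.2, 15.1 and 15.7 FPKM in Non-target, at 18.6, 19.1 and 19.7 FPKM in C9orf89-CKO and at 17.5, 17.7 and 16.3 FPKM in MLPH-CKO, both above every Non-target library. It was at 14.998, 15.7 and 17.2 FPKM in MAGI2-CKO and at 14.9, 15.6 and 15.5 FPKM in RHBDD2-CKO, which overlapped with Non-target. DNMT3B rose by 0.35 in C9orf89-CKO (standard error 0.06, adjusted p = 0.00127 from limma, up to 0.012 over the alternatives). It rose by 0.19 in MLPH-CKO (adjusted p = 0.0323 from limma, range over the alternatives 0.00828 to 0.116). That call was lost without Non-target replicate 1 (adjusted p = 0.114), Non-target replicate 2 (0.0602), MLPH-CKO replicate 1 (0.0814), MLPH-CKO replicate 2 (0.109) or all libraries numbered 1 (0.116), or with only the 6 libraries compared (0.0808).

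DNMT3A (chromosome 2 from 25227855 to 25342590) was at 3.19, 2.34 and 2.73 FPKM in Non-target, a spread as wide as that between groups. It was at 2.52, 2.13 and 2.34 FPKM in C9orf89-CKO, at 3.03, 2.92 and 3.01 FPKM in MAGI2-CKO, at 2.57, 2.30 and 2.11 FPKM in MLPH-CKO and at 2.85, 2.89 and 2.56 FPKM in RHBDD2-CKO. No difference from Non-target passed by limma, but without Non-target replicate 2, its lowest well, those of C9orf89-CKO (adjusted p = 0.0484) and MLPH-CKO (0.0394) did. MAGI2-CKO exceeded C9orf89-CKO by 0.35 (adjusted p = 0.0405) and MLPH-CKO was lower than MAGI2-CKO by 0.35 (adjusted p = 0.0399), each called in 16 of the 26 alternatives, with adjusted p-values up to 0.149 and 0.142. Its log2 differences in the 4 clones were −0.22, 0.12, −0.23 and 0.02, with 95% intervals between −0.47 and 0.36. The ratio of DNMT3B to DNMT3A was 5.56 ± 1.04 (SD, n = 3) in Non-target, 8.25 ± 0.802 in C9orf89-CKO and 7.41 ± 0.515 in MLPH-CKO, and 5.35 ± 0.386 and 5.56 ± 0.459 in MAGI2-CKO and RHBDD2-CKO.

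Among the erasers, TET2 differed most. TET2, which is often mutated in leukemia (chromosome 4 from 105145875 to 105279816), had the lowest FPKM of the members in every library, with 251 to 566 fragments. It was at 1.57, 1.18 and 1.44 FPKM in Non-target, at 1.84, 1.67 and 1.62 FPKM in C9orf89-CKO, at 1.65, 1.59 and 1.56 FPKM in MAGI2-CKO, at 0.914, 0.889 and 0.831 FPKM in MLPH-CKO and at 1.89, 1.73 and 1.94 FPKM in RHBDD2-CKO. The MLPH-CKO libraries lay below all others. C9orf89-CKO and RHBDD2-CKO lay above Non-target without overlap, and in C9orf89-CKO the difference of 0.28 did not pass (adjusted p = 0.0737 from limma, 0.0328 without Non-target replicate 1). That difference passed in 5 of the 26 alternatives. These included no trend (0.0449), the replicate block (0.0495), voom on fragments (0.0363) and a term for the libraries numbered 1 (0.0404).

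TET2 fell by 0.61 on the log2 scale in MLPH-CKO (standard error 0.11, adjusted p = 0.000988 from limma, up to 0.0322 over the alternatives). MLPH-CKO was also lower than C9orf89-CKO by 0.89 (adjusted p = 0.000161) and than MAGI2-CKO by 0.80 (adjusted p = 0.000187). The widest gap was that of 1.00 between RHBDD2-CKO and MLPH-CKO (standard error 0.11, adjusted p = 1.41e-05 from limma). The rise of 0.39 in RHBDD2-CKO against Non-target (adjusted p = 0.0134 from limma, range over the alternatives 0.00386 to 0.0838) was lost without Non-target replicate 2 (0.0586) or RHBDD2-CKO replicate 3 (0.0520), or with only the 6 libraries compared (0.0838).

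TET3 (chromosome 2 from 73986404 to 74108176) was at 3.54, 2.43 and 3.15 FPKM in Non-target, at 3.57, 3.24 and 2.92 FPKM in C9orf89-CKO, at 3.26, 3.36 and 2.99 FPKM in MAGI2-CKO and at 2.85, 3.01 and 3.28 FPKM in MLPH-CKO. In RHBDD2-CKO it was at 4.32, 4.14 and 3.87 FPKM, above every other library. The rise of 0.44 against Non-target (standard error 0.12, adjusted p = 0.0138 from limma, range over the alternatives 0.00421 to 0.0776) was lost without Non-target replicate 2 (0.0545) or with only the 6 libraries compared (0.0776). That library was low in all 3 TET genes, and its members lay at a median of −0.11 (log2) from their group means.

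TET1 (chromosome 10 from 68560656 to 68694482) was called in none of the 10 comparisons by limma, although up to 3 of the 26 alternatives called it in some of them. It was at 5.02, 3.42 and 4.69 FPKM in Non-target, at 5.56, 5.14 and 5.01 FPKM in C9orf89-CKO, at 4.64, 4.43 and 4.10 FPKM in MAGI2-CKO, at 4.53, 4.60 and 4.68 FPKM in MLPH-CKO and at 5.20, 5.51 and 5.07 FPKM in RHBDD2-CKO. RHBDD2-CKO lay above Non-target without overlap, by 0.28 (95% interval 0.03 to 0.52, adjusted p = 0.0752 from limma, 0.0471 without the libraries numbered 1, 0.0196 without Non-target replicate 1 alone). In C9orf89-CKO the difference was 0.27 (adjusted p = 0.0977 from limma, 0.0274 without Non-target replicate 1). The 3 TET genes together came to 8.82 ± 1.60 FPKM (SD, n = 3) in Non-target, 8.53 ± 0.252 in MLPH-CKO, 9.19 ± 0.475 in MAGI2-CKO, 10.2 ± 0.713 in C9orf89-CKO and 11.2 ± 0.302 in RHBDD2-CKO.

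TDG, the glycosylase that acts after the TET enzymes (chromosome 12 from 103965804 to 103988874), was at 21.6, 19.97 and 20.3 FPKM in Non-target. It was at 24.3, 23.1 and 22.3 FPKM in C9orf89-CKO, at 20.9, 18.97 and 17.6 FPKM in MAGI2-CKO, at 22.7, 21.4 and 22.4 FPKM in MLPH-CKO and at 29.3, 25.7 and 25.2 FPKM in RHBDD2-CKO. The RHBDD2-CKO libraries were the 3 highest of all 15. In RHBDD2-CKO, TDG rose by 0.37 (standard error 0.07, adjusted p = 0.00202 from limma, up to 0.0185 over the alternatives), and RHBDD2-CKO exceeded MAGI2-CKO by 0.48 (adjusted p = 0.000199). C9orf89-CKO lay above Non-target as well, by 0.17 (adjusted p = 0.108 from limma), and passed without the libraries numbered 1 (0.0327), with a term for them (0.0102) and with the replicate block (0.0152).

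MBD2, the reader (chromosome 18 from 54151601 to 54224788), was at 5.25, 5.18 and 5.11 FPKM in Non-target, the tightest of its groups. It was at 4.75, 4.52 and 4.44 FPKM in C9orf89-CKO, at 3.63, 4.30 and 4.12 FPKM in MAGI2-CKO, at 4.70, 4.54 and 4.19 FPKM in MLPH-CKO and at 4.79, 5.19 and 5.71 FPKM in RHBDD2-CKO. The first 3 clones lay below Non-target without overlap, and only MAGI2-CKO passed in limma, with a fall of 0.36 (standard error 0.08, adjusted p = 0.00322, up to 0.0199 over the alternatives). In MLPH-CKO the difference was −0.21 (adjusted p = 0.0677 from limma) and in C9orf89-CKO −0.18 (adjusted p = 0.125). That of MLPH-CKO passed without the libraries numbered 1 (0.0388), with quantile normalization (0.0410) and without MAGI2-CKO replicate 1 (0.0478).

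**Figure D2:**
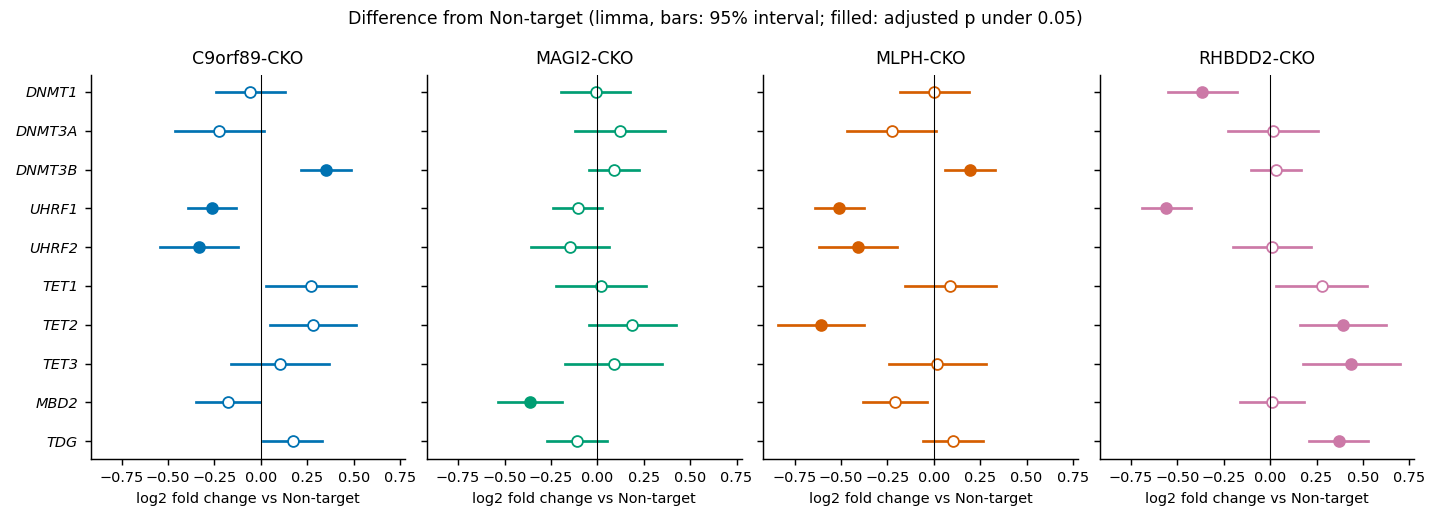
Each panel gives, for 1 clone, the log2 fold change against Non-target (horizontal axis) of the 10 genes, with the 95% interval as a bar and a filled point where the adjusted p was under 0.05. The filled points lie at UHRF1 in 3 panels, at DNMT3B, UHRF2 and TET2 in 2 each, and at DNMT1, TET3, TDG and MBD2 in 1 each.

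In all, C9orf89-CKO had 3 of 10 members called against Non-target (1 higher, 2 lower), where 26.0% of all tested genes were called (12.9% higher, 13.1% lower). MAGI2-CKO had 1 (lower), against 36.1% of all genes (17.0% higher, 19.1% lower). MLPH-CKO had 4 (1 higher, 3 lower), against 30.1% (14.5% higher, 15.5% lower), and RHBDD2-CKO had 5 (3 higher, 2 lower), against 34.1% (17.4% higher, 16.7% lower). Over the 4 comparisons this is 13 of 40 pairs of member and clone. Without the libraries numbered 1 the counts were 4, 1, 4 and 6, beside 32.4%, 40.4%, 36.9% and 42.0% of all tested genes. In MLPH-CKO, MBD2 was then called and DNMT3B was not. Without Non-target replicate 2, RHBDD2-CKO had 3, beside 26.4% of all tested genes. The members are described 1 by 1 and not as a set.

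Between the clones, 23 of 60 pairs were called, of which 13 were called under all 26 alternatives as well. These differences do not use the Non-target values, but the Non-target wells still entered the filter and the shared estimate of the spread. MAGI2-CKO against C9orf89-CKO had 3 of 10 members called (22.5% of all genes), MLPH-CKO against C9orf89-CKO had 2 (14.2%) and MLPH-CKO against MAGI2-CKO had 3 (21.2%). The first count was 1 without MAGI2-CKO replicate 2 (16.4% of all genes), without MAGI2-CKO replicate 3 (16.05%) or with only the 6 libraries (17.2%). The second was 1 without C9orf89-CKO replicate 3 (10.2%), without MLPH-CKO replicate 2 (10.6%) or with only the 6 libraries (7.88%). RHBDD2-CKO had 4 called against C9orf89-CKO (29.3%), 5 against MAGI2-CKO (41.6%) and 6 against MLPH-CKO (37.0%). The 6 were DNMT1 lower, and UHRF2, TET2, TET3, MBD2 and TDG higher. The call of MBD2 (adjusted p = 0.0485 from limma, up to 0.196) was made in 9 of the 26 alternatives only, that of TET3 in 23 and that of TDG in 25.

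The genes around each member were examined next, since a clone of HEK293T can carry a segment in another number of copies. For each member, the 50 tested genes nearest to it on its chromosome were taken. The stretch they cover differed in length, from position 9291515 to 11197791 for DNMT1 but from 14521 to 16870843 for UHRF2. The median log2 fold changes of the UHRF1 neighbours in the 4 clones were −0.12, 0.07, 0.05 and −0.08, and those of DNMT1 −0.12, −0.03, −0.02 and −0.04. UHRF1 itself lay below the lower quartile of its neighbours in all 4 clones, by little in C9orf89-CKO (−0.26 against −0.24) and MAGI2-CKO (−0.105 against −0.101) and by more in MLPH-CKO (−0.51 against −0.15) and RHBDD2-CKO (−0.56 against −0.28). DNMT1 in RHBDD2-CKO was close to that quartile (−0.37 against −0.34). The neighbours of DNMT3B had −0.02 in C9orf89-CKO, those of TDG 0.02 and those of TET3 −0.04 in RHBDD2-CKO.

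TET2 and UHRF2 were different. In MLPH-CKO the neighbours of TET2 had a median of −0.48 beside the −0.61 of TET2 itself, and in the other clones 0.08, −0.15 and 0.06. The 3 genes whose log2 values were most like those of TET2 over the 15 libraries were PTPN13 (Pearson r = 0.987), NAF1 (0.978) and SPATA5 (0.974), all on chromosome 4. PTPN13, a phosphatase, was at 7.60 ± 0.0657 FPKM in MLPH-CKO and at 14.3 ± 2.10 FPKM (SD, n = 3) in Non-target. These libraries share their groups, and the correlations are a description.

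The neighbours of UHRF2 on chromosome 9 were low in all 4 clones, with medians of −0.77, −0.83, −0.62 and −0.56, while UHRF2 was at −0.33, −0.15, −0.41 and 0.01. TET1 lay among neighbours at 0.29, 0.20, 0.26 and −0.08 and was itself at 0.27, 0.02, 0.09 and 0.28. MBD2 in MAGI2-CKO was at −0.36 among neighbours at −0.20. Whether the number of copies of these segments differs between the clones was not tested.

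**Figure D3:**
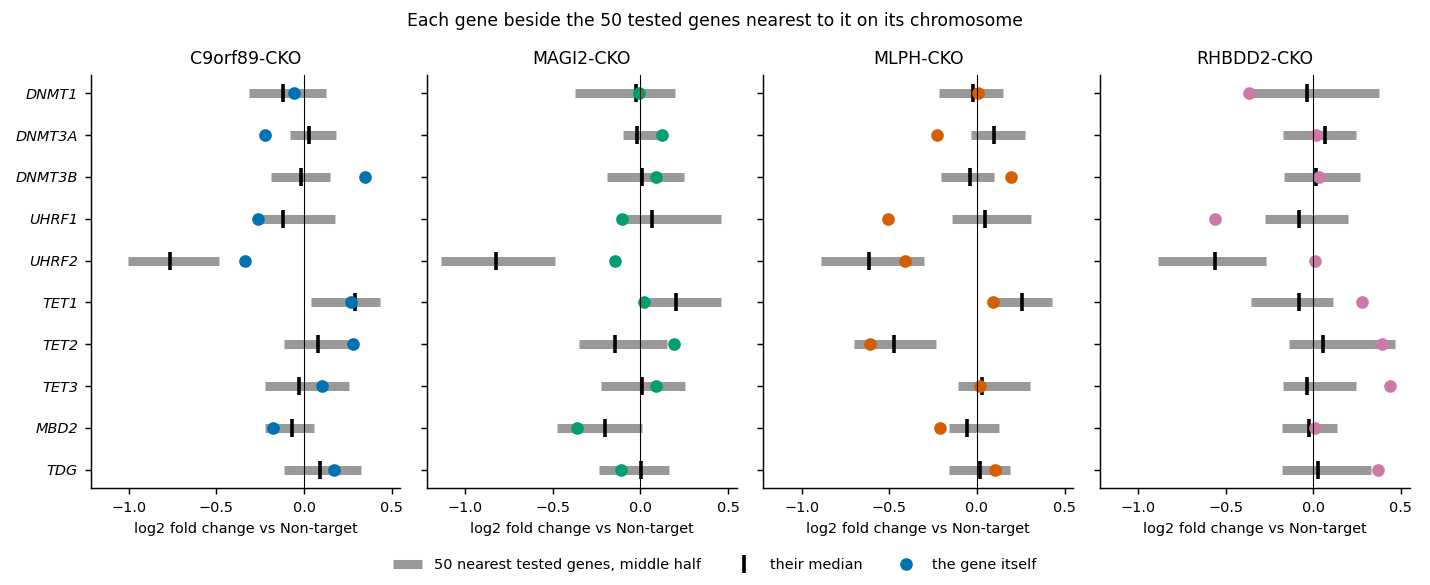
For each clone, colored points give the log2 fold change of a member against Non-target (horizontal axis), grey bars the interquartile range of its 50 nearest tested genes and black ticks their median. The tick of TET2 moves with the gene to −0.48 in MLPH-CKO, the ticks of UHRF2 lie between −0.83 and −0.56 in every clone, and those of UHRF1 and DNMT1 stay between −0.12 and 0.07.

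Partners of these enzymes were taken from 4 lists of 55 genes in all, of which 49 were tested (DNMT3L, ZFP57, DPPA3, BHMT and GNMT were among those below the filter). Calls in C9orf89-CKO numbered 15 of the 49, with 8 higher and 7 lower. MAGI2-CKO had 18 (12 up, 6 down), MLPH-CKO 16 (8 each way) and RHBDD2-CKO 24 (13 up, 11 down), beside the 26.0%, 36.1%, 30.1% and 34.1% of all tested genes called in the 4 clones. Without MLPH-CKO replicate 2 the count in that clone was 10, beside 24.0% of all tested genes. Their median log2 fold changes were −0.03, 0.00, −0.05 and 0.01, beside −0.01 to 0.00 over all tested genes.

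Of 9 readers of methylation, 5 were called lower and none higher in RHBDD2-CKO, where 16.7% of all tested genes were called lower. In the other 3 clones, where 26.0%, 36.1% and 30.1% of all tested genes were called, 1, 0 and 1 of the 9 were called, and the difference between clones was not tested. ZBTB38, a zinc finger protein that binds methylated CG, was at 0.913 ± 0.126 FPKM there and at 1.80 ± 0.166 FPKM in Non-target (log2 fold change −0.91, adjusted p = 4.35e-05 from limma). ZBTB33, known as Kaiso, was at 14.9 ± 0.442 FPKM against 22.9 ± 1.08 FPKM (−0.61, adjusted p = 3.2e-06 from limma). MBD3 and MBD4 were called lower there as well. The calls of these 2 were weak, with an adjusted p of 0.0488 and 0.027, and up to 0.189 and 0.1 over the alternatives. The 50 neighbours of ZBTB38 had a median of −0.58 and those of ZBTB33, on another chromosome, one of −0.70 in this clone.

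Of 14 tested genes for targeting and cofactors, KDM1B, TRDMT1 and HELLS stood out under the naming rule. KDM1B, a histone demethylase that oocytes need to set methylation, was at 14.9 ± 0.714 FPKM in Non-target, at 10.2 ± 0.241, 10.6 ± 0.153 and 9.59 ± 0.469 FPKM in the first 3 clones, and at 20.2 ± 0.575 FPKM in RHBDD2-CKO. It fell by 0.54, 0.48 and 0.63 in the first 3 clones and rose by 0.44 in RHBDD2-CKO (adjusted p = 4.7e-05 from limma), and its neighbours on chromosome 6 had medians of −0.31, −0.36, −0.31 and 0.63. TRDMT1, which despite its older name DNMT2 methylates transfer RNAs, measured 1.08 ± 0.0309 FPKM in Non-target and 1.53 to 1.82 FPKM in the clones. It rose by 0.46 to 0.71. HELLS, a chromatin remodeler needed for normal methylation, rose by 0.21 to 0.33, from 9.78 ± 0.679 FPKM. The neighbours of these 2 genes on chromosome 10 were raised too, by 0.30 to 0.40 in the first 3 clones and by 0.11 and 0.04 in RHBDD2-CKO. The calls of HELLS in MAGI2-CKO, MLPH-CKO and RHBDD2-CKO reached adjusted p-values of 0.0856, 0.0619 and 0.0573 among the alternatives.

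Of 11 tested genes that supply the methyl group, 3, 5, 3 and 6 were called higher in the 4 clones, beside 12.9%, 17.0%, 14.5% and 17.4% of all tested genes, and 1, 0, 2 and 1 were called lower. SHMT1, which makes one-carbon folate in the cytosol, had the largest rise of any related gene in every clone, from 9.69 ± 0.682 FPKM in Non-target to 22.7 ± 0.801, 26.8 ± 0.778, 28.9 ± 0.863 and 23.5 ± 1.03 FPKM in the 4 clones. The log2 rises were 1.22, 1.46, 1.57 and 1.27 (adjusted p at most 2.55e-08 from limma), beside medians of 1.17, 1.15, 1.17 and 1.08 for its 50 neighbours on chromosome 17. MTAP, which salvages methionine, rose by 0.41, 0.43, 0.21 and 0.41 among neighbours with medians between −0.15 and 0.04. It lay above their upper quartile in MAGI2-CKO (0.432 against 0.323) and below it in MLPH-CKO (0.210 against 0.450). In C9orf89-CKO (0.406 against 0.402) and RHBDD2-CKO (0.409 against 0.414) it was close to that quartile. The call of MTAP in MLPH-CKO reached an adjusted p of 0.102 among the alternatives.

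Among 15 tested helpers of demethylation, GADD45G, a stress gene linked to active demethylation, fell in all 4 clones, from 1.31 ± 0.576 FPKM in Non-target to 0.351 ± 0.117, 0.0907 ± 0.0221, 0.575 ± 0.222 and 0.366 ± 0.0462 FPKM. At 2 to 40 fragments in a library its values are coarse, and in MLPH-CKO its adjusted p of 0.0327 from limma rose to 0.215 among the alternatives, and that in C9orf89-CKO from 0.00347 to 0.0658. NEIL1, a glycosylase of base repair, rose by 1.21 in MAGI2-CKO (adjusted p = 0.000317 from limma) and by 0.73 in MLPH-CKO, from 1.97 ± 0.249 to 4.69 ± 0.450 and 3.33 ± 0.382 FPKM. Its neighbours on chromosome 15 had medians of 0.27 and 0.33 in these clones. In all 4 comparisons together, 3.39% of all tested genes were called higher each time and 3.26% lower each time. Among the related genes that did so were TRDMT1, HELLS, SHMT1 and MTAP (higher) and GADD45G (lower), and the comparisons share the Non-target wells.

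UHRF1 and DNMT1 are transcribed with the genes of DNA replication, and 16 genes of S phase were therefore set beside them. In each of the first 3 clones 7 of the 16 were called, all lower, and in RHBDD2-CKO 6 were called, 5 lower and RRM2 higher. Of all tested genes 13.1%, 19.1%, 15.5% and 16.7% were called lower in the 4 clones. Their median log2 fold changes were −0.18, −0.20, −0.23 and −0.03. TYMS, which makes thymidylate, was at 28.8 ± 3.29 FPKM in Non-target and at 20.9 to 23.6 FPKM in the clones, with falls of 0.28 to 0.46. CCNE1 (cyclin E) fell by 0.30 to 0.55 and LIG1 (DNA ligase 1) by 0.30 to 0.57. MCM2, part of the replicative helicase, fell by 0.89 in RHBDD2-CKO (76.1 ± 4.96 to 41.0 ± 1.53 FPKM, adjusted p = 2.26e-06 from limma). PCNA, the sliding clamp, was called in none of the 4 by limma. The 7 S-phase calls in MAGI2-CKO, where UHRF1 did not pass, fell to 3 or 4 in some alternatives, as did those in C9orf89-CKO and MLPH-CKO. Without Non-target replicate 2 the counts in the first 3 clones were 3, 3 and 4, beside 20.7%, 31.1% and 25.6% of all tested genes called. The counts came to 3 or 4 in 1 clone each without Non-target replicate 3, C9orf89-CKO replicate 1, any 1 MAGI2-CKO library or MLPH-CKO replicate 2. In that clone 20.3% to 32.1% of all tested genes were then called. With quantile normalization C9orf89-CKO and MAGI2-CKO had 3 each (25.5% and 35.4% of all tested genes), and with only the 6 libraries compared C9orf89-CKO had 4 (20.4%). Without the libraries numbered 1, RHBDD2-CKO had 10, beside 42.0% of all tested genes called in either direction. The part of the cell cycle in the levels of UHRF1 and DNMT1 was not tested.

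**Figure D4:**
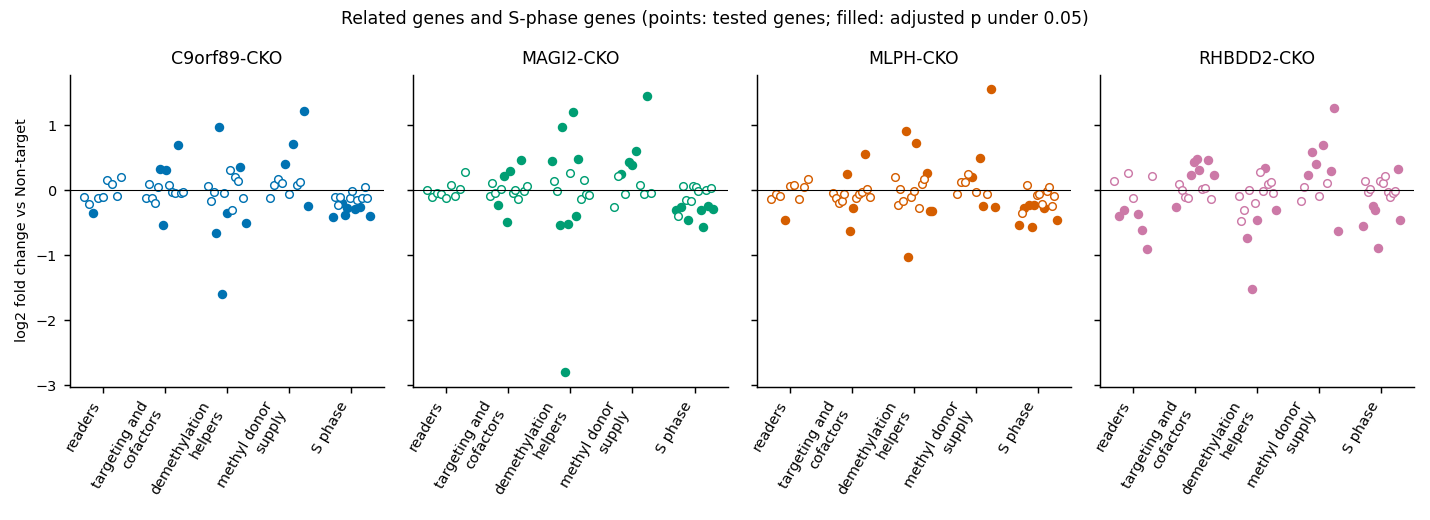
Points give the log2 fold change against Non-target (vertical axis) of each tested gene of 4 related lists and of the S-phase list, by clone, filled where the adjusted p was under 0.05. SHMT1 tops every panel at 1.22 to 1.57, GADD45G is the lowest point in all 4, and the filled S-phase points lie below 0 except RRM2 in RHBDD2-CKO.

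Against this background of small differences in the machinery, other genes went from on to off. A gene was taken as on in a group at 1 FPKM or more in all 3 libraries and as off at 0.1 FPKM or less in all 3. By this rule 131 genes were on in at least 1 group and off in at least 1 other, of 12948 genes on in at least 1 group, and none of the 10 members was among them. They comprised 89 protein-coding genes and 20 long intergenic RNAs, and 21 lay on chromosome X (16.03%, where 3.64% of the tested genes lie). Because the values chose these genes, their levels are a description without a test.

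Non-target had 60 of the 131 on, 44 between and 27 off. RHBDD2-CKO had 48 on and 51 off, C9orf89-CKO 39 on and 49 off, MAGI2-CKO 39 on and 54 off, and MLPH-CKO 30 on and 38 off, with 63 between. The group with the highest UHRF1 had the most on. RHBDD2-CKO and MLPH-CKO, the groups with the lowest UHRF1, had 48 and 30 on, the second most and the fewest. With 5 clones this order carries no test. With on at 2 FPKM the number of genes was 62.

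Only Non-target had genes that were on there and off in the other 4 groups, 9 in all. The most abundant was CTAG2, a cancer-testis antigen of chromosome X that is known to be silenced by methylation outside the testis. The Non-target libraries had 13.9, 16.8 and 16.1 FPKM of it, the other 12 no more than 1 fragment each. Its close relatives CTAG1A and CTAG1B could share some of its reads, which was not tested, so that the gene is uncertain. MAGEA1, another cancer-testis antigen, is not among the 9. It was at 1.60, 1.70 and 1.27 FPKM in Non-target, between in RHBDD2-CKO and off in the other 3 clones. In RHBDD2-CKO 1 library had 0.173 FPKM (5 fragments). Other cancer-testis genes, picked out after the values were seen, went different ways. MAGEA8, MAGEA12 and CSAG1 were on in Non-target (means of 6.01, 3.24 and 1.68 FPKM) and off in all 4 clones. MAGEC2 was on in RHBDD2-CKO alone (1.41 FPKM). Among those low in Non-target and on in the first 3 clones were SAGE1, CT45A10 and HORMAD1. SAGE1 had a mean of 0.308 FPKM in Non-target, of 7.66, 4.02 and 8.12 FPKM in those clones and of 0 in RHBDD2-CKO. CT45A10, which has near-identical copies and is uncertain, had means of 0.403, 8.99, 5.25, 7.85 and 0 FPKM in the same order, and HORMAD1 was off in Non-target and RHBDD2-CKO and at 1.79 to 2.38 FPKM in the other clones.

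Of 18 germline genes that somatic cells usually keep methylated, 4 passed the filter. The list summed to 20.1 to 22.5 FPKM in the Non-target libraries and to 3.14 to 8.35 FPKM in the others. CTAG2, the uncertain gene above, made up 15.6 FPKM of the Non-target sum on average. TEX15, on in every group, was at 1.97 to 2.79 FPKM on average, and MAGEB2 was at 5.49 ± 0.341 FPKM in MAGI2-CKO and at 0.232 ± 0.0518 FPKM in C9orf89-CKO. DAZL, TEX101, PAGE5 and XAGE1A were at 0 in all 15 libraries.

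The reverse also occurred. Off only in Non-target were 3 genes. CYBA, a subunit of the NADPH oxidase, was the only gene off in MLPH-CKO and on in all others, at 0.0326, 0.0158 and 0.0650 FPKM against 6.39 to 24.7 FPKM. IGFBPL1, related to the proteins that bind insulin-like growth factors, was 1 of 3 genes off only in RHBDD2-CKO, at 0 in its 3 libraries and at 1.46 to 12.8 FPKM in the others. C9orf89-CKO and MAGI2-CKO had no gene on or off by themselves.

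Zinc finger genes were picked out after the values were seen. Of the 131 genes 13 carry a ZNF, ZIK or ZSCAN symbol (9.92%, where such genes are 386 or 2.39% of the tested genes), and 12 of the 13 lie on chromosome 19. All 13 were on in RHBDD2-CKO. In Non-target 7 were on and 6 between, in C9orf89-CKO 8 were between and 5 off, in MLPH-CKO 6 were between and 7 off, and in MAGI2-CKO 1 was on, 2 were between and 10 off. ZNF329 was at 4.47, 4.48 and 4.46 FPKM in RHBDD2-CKO, at 0.564, 0.929 and 0.873 FPKM in Non-target and at 0.0119 to 0.0239 FPKM in MAGI2-CKO. ZIK1 was at 2.83, 2.98 and 2.99 FPKM in RHBDD2-CKO and at 0.233 to 0.284 FPKM in Non-target, with at most 5 fragments in any library of the other 3 clones. ZNF700 was at 1.43, 1.32 and 1.63 FPKM in RHBDD2-CKO and at 1.52, 1.23 and 1.15 FPKM in Non-target, and at 0 in C9orf89-CKO and MAGI2-CKO. Whether DNA methylation at these genes differs between the clones was not tested.

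Promoter sequence was compared last. Counted as CG in the 300 bases around a RefSeq start (250 before, 50 after, the window with the most where a gene has several), the 10 members had a median of 31, from 3 at DNMT3B and 11 at TET1 to 46 at UHRF1 and DNMT3A. The 10130 of 12373 tested protein-coding genes with a window had a median of 29. The single window of DNMT3B lies inside the annotated gene, so that another start may be missing from the table. Of all 35116 windows 96.0% held at least 1 CG, which reads the same on both strands. For the on and off genes the comparison is void, because only 66 of the 89 protein-coding ones had a window (74.2%).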

How the data were processed

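RNA of 15 libraries (RNeasy, DNase I, NEBNext Ultra kit, NovaSeq) was counted by the authors, whose processing notes name HISAT2 2.0.5, featureCounts 1.5.0-p3 and DESeq2; the genome build, annotation and strand setting are not given in the sources used here. The authors deposited values divided by exon length and library size, with no unit named, and they were taken as FPKM. Multiplied by exon length in GENCODE v29 (GRCh38), all of them came out as integers on a scale set once for each library, within 0.02 fragments, and these integers gave the fragments per gene and the depth.

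Genes at 0.5 FPKM or more in at least 3 libraries (16175) were tested in 1 fit over the 15 libraries with limma 3.58.1 (R 4.3.3, trend) on log2(FPKM + 0.1), which understates changes of low genes, with Benjamini-Hochberg adjustment in each comparison. The script was tested on simulated data. Tables and plots used Python 3.11.15, numpy 2.4.6, pandas 2.3.3 and matplotlib 3.10.9.

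The members and all lists (readers, targeting and cofactors, demethylation helpers, methyl donor, S phase, germline, HEK293T and blood cell markers) were chosen with earlier results of these data known. Named were all members; related genes that passed in 1 direction in every clone, and for each list the 2 genes that changed most; the most abundant gene on or off in 1 group only; and the 3 genes most like the called member with the widest range. Some genes named by this rule are not reported here. Genes outside this rule are said to be picked out or belong to a count of 5 or fewer. Alternatives were no filter, a mean of at least 1 FPKM, a pseudocount of 1 or 0.01, quantile normalization, no trend, only the 6 libraries compared, a replicate block, voom on fragments and each library left out. Leaving out the libraries numbered 1, and a term for them, were added after seeing the data. Wells are the replicates, so p-values measure the spread between wells of 1 clone.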

Additional observations from a re-analysis of the deposited data

How the results depend on the processing

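Of 440 member log2 fold changes refitted under the alternatives other than leaving out 1 library, 417 kept their direction and their side of the threshold, 7 lost the call, 11 gained it and 5 turned. The 5 were DNMT1 in C9orf89-CKO (0.0361) and MAGI2-CKO (0.0633), TET3 in MLPH-CKO (−0.00367) and MBD2 in RHBDD2-CKO (−0.0129) with quantile normalization, and DNMT1 in MAGI2-CKO without the libraries numbered 1 (0.00133). None of these passed the test, and the cause was not tested. With 1 library left out, 564 of 600 were kept, 11 lost the call, 6 gained it and 19 turned. Those that turned ranged from −0.0455 to 0.0379 for DNMT1, −0.143 to 0.127 for TET1 and −0.0588 to 0.203 for TET3 in MAGI2-CKO. In MLPH-CKO they ranged from −0.0385 to 0.0628 for DNMT1, −0.0748 to 0.196 for TET1 and −0.128 to 0.133 for TET3, in C9orf89-CKO from −0.0444 to 0.217 for TET3, and in RHBDD2-CKO from −0.093 to 0.124 for DNMT3A, −0.0104 to 0.0647 for DNMT3B, −0.0732 to 0.0816 for UHRF2 and −0.0545 to 0.0708 for MBD2.

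With only the 6 libraries of a comparison, members called came to 2 for MLPH-CKO and 3 for RHBDD2-CKO, and related genes called were 7 in MLPH-CKO, where fewer libraries estimate the spread. Of all tested genes 22.1% were called in MLPH-CKO and 25.7% in RHBDD2-CKO in that fit. With 1 library left out, members called in RHBDD2-CKO ranged from 3 to 6 and related genes called in MLPH-CKO from 10 to 16. The share of all tested genes called then ranged from 26.4% to 34.9% in RHBDD2-CKO and from 24.0% to 31.1% in MLPH-CKO. Over all genes, MLPH-CKO against C9orf89-CKO had 2303 called, 1275 with only the 6 libraries, 3640 with the replicate block and 3869 with a term for the libraries numbered 1. With on at 2 FPKM, 62 genes were on in 1 group and off in another, with off at 0.2 FPKM 179.

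The replicate numbers do not pair the wells by any label. Once group means were removed, libraries that share a number correlated at a median of 0.0856 (lowest 0.00103, 12 of 30 pairs over 0.1) and 12 of 15 libraries correlated best with their own number. The replicate block gave 5 members called in C9orf89-CKO, adding TET2 (adjusted p = 0.0495 from limma) and TDG (0.0152), and a term for the libraries numbered 1, added after seeing the data, also gave 5. Of all tested genes 35.4% were called in that clone with the block and 36.8% with the term. Depth limits the values of TET2, which had 251 to 276 fragments in the MLPH-CKO libraries.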
